A study of Mus musculus with 14 samples.

Results

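The airway of the lung is lined mainly by secretory (club) cells and ciliated cells, and 10 of their genes were followed here among the 52550 genes in the table. They were Scgb1a1, Scgb3a2, Scgb3a1, Cyp2f2, Muc5b and Bpifa1 for secretory cells and Foxj1, Tppp3, Ccdc153 and Dynlrb2 for ciliated cells, chosen by name as known genes of these cells and found in the table through their Ensembl identifiers. RNA was sequenced from 6 KPY-Ctrl and 8 KPY-Setd2KO lung adenocarcinomas of mice on a mixed B6J/129S4vJae background. All mice, controls included, carried Trp53 flox/flox and Rosa26 LSL-YFP/LSL-YFP, so that Cre deletes p53 and turns on yellow fluorescent protein (YFP). LentiCRISPRv2Cre, a lentivirus carrying Cre and a guide RNA, was given into the trachea, with a guide against β-galactosidase in the controls and against Setd2, a histone H3 lysine-36 methyltransferase, in the knockouts. The methods describe microdissected tumors sorted for live, YFP-positive cells, whereas the labels speak of RNA from cell lines, give other kits, and state no age, sex or mouse for a tumor. Fewer mice than tumors are given for each genotype in the study, so some tumors shared a mouse, and the tests below treated all tumors as independent.

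Club cells secrete secretoglobins, mucins and antimicrobial proteins into the airway lining and hold cytochrome P450 enzymes that turn over inhaled chemicals. Ciliated cells move the mucus with motile cilia, which are built under the transcription factor FOXJ1 together with RFX factors and beat through axonemal dynein motors. The tumors studied here are usually traced to alveolar type 2 cells, with club cells as another possible cell of origin. In bulk RNA, fewer cells of a type cannot be told apart from less RNA per cell.

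The promoters of 5 of the 10 genes were listed in the RefSeq table of GRCm38.p6 and are shown, as the listed ones, with their matches to motifs of airway and cilia factors and to a general promoter box. All lie on the plus strand, start 250 bases before the RefSeq start and end before the first base of any annotated transcript of the gene. They lie at chr7:27119705-27119908 for Cyp2f2, chr11:49663345-49663594 for Scgb3a1, chr2:154142630-154142879 for Bpifa1, chr9:44240427-44240675 for Ccdc153 and chr8:116504765-116504973 for Dynlrb2. Capitals mark matches, on either strand, to CCAAT (the CCAAT box), CAAGTG (a core bound by the lung factor NKX2-1), GTAAACA (a forkhead core) and GGCAAC (the core of the X box that RFX factors bind), none of which overlapped.
Cyp2f2: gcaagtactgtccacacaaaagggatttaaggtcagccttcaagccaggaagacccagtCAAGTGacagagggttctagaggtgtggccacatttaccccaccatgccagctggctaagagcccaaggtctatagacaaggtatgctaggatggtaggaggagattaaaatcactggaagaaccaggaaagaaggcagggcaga
Scgb3a1: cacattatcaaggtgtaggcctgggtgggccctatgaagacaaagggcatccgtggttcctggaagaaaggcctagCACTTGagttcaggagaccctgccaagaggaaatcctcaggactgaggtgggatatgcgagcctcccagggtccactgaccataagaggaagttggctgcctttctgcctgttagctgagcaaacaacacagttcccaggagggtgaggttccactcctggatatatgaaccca
Bpifa1: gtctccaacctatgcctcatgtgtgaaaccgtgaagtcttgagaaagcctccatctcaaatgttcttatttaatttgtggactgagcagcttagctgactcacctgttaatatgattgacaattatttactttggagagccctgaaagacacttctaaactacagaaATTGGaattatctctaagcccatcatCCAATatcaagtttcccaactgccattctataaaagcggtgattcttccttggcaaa
Ccdc153: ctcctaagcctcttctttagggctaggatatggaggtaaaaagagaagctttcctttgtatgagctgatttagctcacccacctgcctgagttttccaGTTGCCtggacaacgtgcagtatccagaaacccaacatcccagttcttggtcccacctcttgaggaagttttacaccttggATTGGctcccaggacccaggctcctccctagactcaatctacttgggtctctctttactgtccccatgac
Dynlrb2: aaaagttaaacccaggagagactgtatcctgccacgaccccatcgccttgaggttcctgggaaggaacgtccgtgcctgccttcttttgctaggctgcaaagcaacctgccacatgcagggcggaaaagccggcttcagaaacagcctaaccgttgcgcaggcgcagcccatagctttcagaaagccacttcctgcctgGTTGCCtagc
The secretory genes Cyp2f2 and Scgb3a1 each held 1 CAAGTG match, at 191 and 174 bases before the start, and Bpifa1 held 2 CCAAT matches. Both ciliated genes held GGCAAC, at 152 bases before the start in Ccdc153 and at 51 in Dynlrb2, and Ccdc153 also held CCAAT. The search covered 250 bases before to 50 bases after each start, and the matches in these 5 genes all lay in the printed part. Among all 32851 windows of that search, 13.6% held CAAGTG, 37.4% CCAAT, 12.5% GGCAAC and 3.65% GTAAACA. Counted by gene, GGCAAC was present in 24 of the 40 other ciliated cell genes with a listed promoter (60%) and in 1 of the 19 other club and secretory genes (5.26%), beside 14.1% of all 27025 genes. CAAGTG was present in 3 of those 19 secretory genes (15.8%) and in 15.4% of all genes. These are matches of letters, not measured binding sites.

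Libraries held between 20072236 and 51828846 counts, and 16836 genes passed the expression filter. Setd2 ranged from 41.9 to 63.6 CPM (counts scaled to library size after TMM normalization) in the controls and from 17.95 to 47.4 in the knockouts. Its mean log2 CPM was lower by a difference of -0.81 (exact two-sided permutation test, 3003 splits, p = 0.00466), but as a CRISPR allele can leave RNA behind, this level does not measure the protein. In the edgeR and DESeq2 fits on genotype alone over all genes, Setd2 did not pass an adjusted p of 0.05. Its log2 fold change was -0.74 by edgeR (adjusted p = 0.175) and -0.75 by DESeq2 (adjusted p = 0.0703). With leukocyte-marker level as a covariate it did pass, at -0.85 (edgeR adjusted p = 0.0383). It also passed with an epithelial-marker covariate, chosen after seeing the data, at -0.85 (edgeR adjusted p = 0.0160). All 6 epithelial markers were present in every tumor, and the alveolar type 2 markers summed to between 6154 and 70830 CPM. Leukocyte-marker RNA was present in every tumor of this YFP sort (18 of 18 markers tested), with a sum from 623 to 10845 CPM in the controls and from 341 to 15426 CPM in the knockouts. The mean log2 CPM of these markers was between 6.73 and 8.09 in KPY-Ctrl 1, 2 and 6 and KPY-Setd2KO 1 to 4 and between 2.89 and 5.34 in the others. Setd2 was between 32.7 and 47.4 CPM in KPY-Setd2KO 1 to 4 and between 17.95 and 28.2 in KPY-Setd2KO 5 to 8. It was between 44.8 and 56.0 CPM in KPY-Ctrl 1, 2 and 6 and between 41.9 and 63.6 in KPY-Ctrl 3 to 5. The part of leukocyte RNA in these Setd2 values was not tested.

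Airway RNA was a small part of these tumors. The 10 genes together took between 0.0092% and 0.18% of all counts, with KPY-Ctrl 6 highest and KPY-Setd2KO 2 lowest. Per kilobase of exon, the median over the 14 tumors was highest for Scgb1a1 at 63.3 CPM per kilobase, then Cyp2f2 at 31.0, Tppp3 at 24.8, Bpifa1 at 11.7, Scgb3a2 at 9.39, Dynlrb2 at 1.16, Muc5b at 0.948, Scgb3a1 at 0.404, Ccdc153 at 0.0916 and Foxj1 at 0.0582. Most neighbours in this order did not hold their places from tumor to tumor: Scgb1a1 was above Cyp2f2 in 8 of 14 tumors, and Bpifa1 above Scgb3a2 in 6. The step from Scgb3a2 to Dynlrb2 was seen in 13 of 14 tumors, and that from Scgb3a1 to Ccdc153 in 12. Of the ciliated genes, Tppp3 stood far above the other 3, among them the defining factor Foxj1.

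Scgb1a1 encodes the club cell secretory protein, the main secreted protein of that cell. In the controls its lowest, median and highest values were 10.3, 39.4 and 1593 CPM, and in the knockouts 2.93, 18.7 and 123 CPM. A single tumor, KPY-Ctrl 6 at 1593 CPM, lay far above all others, the next being KPY-Setd2KO 6 at 123 CPM, and the groups overlapped. The log2 fold change, knockout against control, was -2.74 (standard error 1.22; edgeR unadjusted p = 0.0406, adjusted p = 0.338). Without KPY-Ctrl 6 it was 0.14 (standard error 0.92; adjusted p = 0.965 in the same edgeR test), so the fitted fold change rested on that tumor. DESeq2 set the p-value of Scgb1a1 aside as resting on an outlying count, and with that rule switched off gave an adjusted p of 0.128.

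The other secretoglobins are small secreted proteins of the airway, Scgb3a2 of club cells and Scgb3a1 mainly of the larger airways. For Scgb3a2, the lowest, median and highest values were 1.00, 9.05 and 37.2 CPM in the controls and 1.504, 7.35 and 51.6 CPM in the knockouts. The groups covered nearly the same range, and the log2 fold change was 0.02 (standard error 0.83; edgeR adjusted p = 0.995). Scgb3a1 was far lower, with 0, 0.242 and 1.53 CPM in the controls and 0, 0.476 and 6.02 CPM in the knockouts. No Scgb3a1 read was counted in KPY-Ctrl 1 or KPY-Setd2KO 4, where 3 counts would correspond to 0.0716 and 0.107 CPM (counting error only), and KPY-Setd2KO 5, 6 and 7 were above every control. Its log2 fold change of 1.57 (standard error 1.32; edgeR adjusted p = 0.669) was within the spread between tumors.

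Cyp2f2 encodes a cytochrome P450 of club cells that bioactivates naphthalene. It ranged from 7.41 CPM over a median of 42.5 to 223 in the controls, and from 37.2 over 62.9 to 518 in the knockouts. KPY-Setd2KO 7 was highest, and 3 controls (1, 2 and 3) were below every knockout, while the remaining controls lay within the knockout range. The log2 fold change was 0.85 (standard error 0.79; edgeR adjusted p = 0.710), and 0.11 without KPY-Setd2KO 7. An antisense gene, Gm15883, overlaps Cyp2f2, and since the sources differ on the library kit, reads from it may be included.

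Muc5b encodes a gel-forming airway mucin, and Bpifa1 an antimicrobial protein of the upper airway epithelium. Muc5b measured 3.29, 23.1 and 59.6 CPM (lowest, median, highest) in the controls against 0.387, 9.44 and 79.2 in the knockouts. The knockouts fell into low values in tumors 1 to 4 (0.387 to 4.36 CPM) and higher values in tumors 5 to 8 (14.5 to 79.2 CPM), with both genotypes overlapping. For Bpifa1 the same figures were 2.05, 30.0 and 103 CPM in the controls and 0.677, 12.8 and 61.3 CPM in the knockouts. The log2 fold changes were -0.43 (standard error 0.95) for Muc5b and -1.06 (standard error 0.91) for Bpifa1, with edgeR adjusted p of 0.897 and 0.675. Leaving out each tumor in turn moved them from -1.17 (without KPY-Setd2KO 5) to -0.07 (without KPY-Ctrl 5) for Muc5b and from -1.54 (without KPY-Setd2KO 5) to -0.62 (without KPY-Ctrl 2) for Bpifa1.

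**Figure D1:**
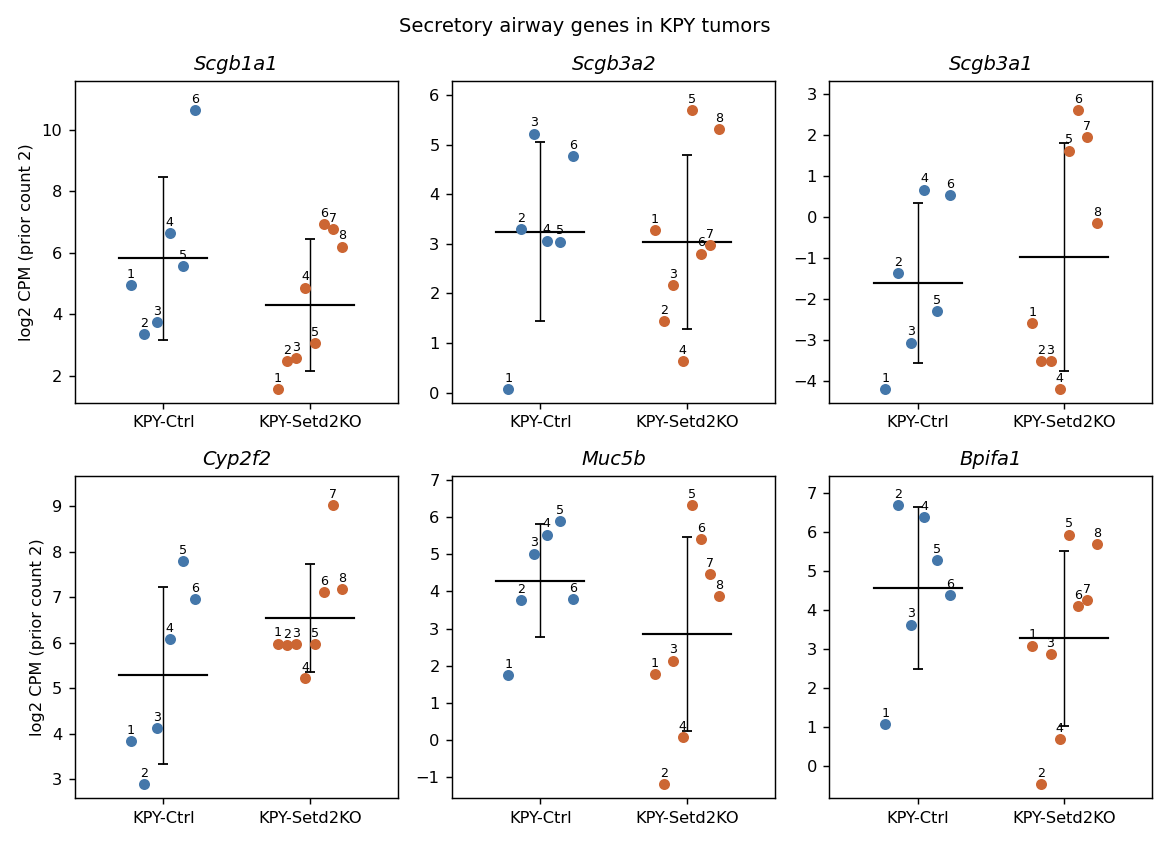
Log2 CPM (prior count 2) of the 6 secretory genes in each tumor, with KPY-Ctrl in blue and KPY-Setd2KO in orange, the replicate number above each point, and the black line and bars giving mean and SD. In every panel the genotypes overlap, and the Scgb1a1 panel shows KPY-Ctrl 6 at 1593 CPM above all other tumors.

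Foxj1 encodes the factor that switches on the motile cilia program. It was near the counting limit, from 0.0215 over a median of 0.121 to 0.432 CPM in the controls and from 0 over 0.170 to 3.42 CPM in the knockouts, and it did not pass the expression filter. KPY-Setd2KO 7 was the single high tumor, with 66 counts, and KPY-Setd2KO 8 had none. The difference in mean log2 CPM was 0.77, not past the threshold (exact two-sided permutation test, p = 0.411), and 0.27 without KPY-Setd2KO 7. The fitted log2 fold change was 1.89 by DESeq2 (adjusted p = 0.347) and 1.79 by edgeR without a filter (adjusted p = 0.444). Ccdc153, a coiled-coil protein gene of ciliated cells, was as low, from 1 to 27 counts per tumor. Its lowest, median and highest values were 0.0596, 0.108 and 0.614 CPM in the controls and 0.0323, 0.358 and 1.09 CPM in the knockouts. KPY-Ctrl 6 was highest among the controls and KPY-Setd2KO 7 among the knockouts, with a log2 fold change of 0.93 (standard error 0.80; edgeR adjusted p = 0.679).

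Dynlrb2 encodes a dynein light chain of ciliated cells. It measured 0.358, 0.878 and 1.61 CPM (lowest, median, highest) in the controls and 0.226, 0.507 and 5.76 CPM in the knockouts. KPY-Setd2KO 7 was again far above the rest, and the other knockouts lay between 0.226 and 1.15 CPM. The log2 fold change was 0.43 (standard error 0.73; edgeR adjusted p = 0.863) and turned to -0.69 without that tumor. Tppp3, a tubulin-binding protein gene used as a ciliated marker, behaved differently from the other 3. It measured 9.45, 65.0 and 118 CPM in the controls and 38.4, 41.0 and 98.2 CPM in the knockouts. KPY-Ctrl 4 and 5 were lowest of all tumors and KPY-Setd2KO 4 stood above the other knockouts, and the log2 fold change was -0.25 (standard error 0.49; edgeR adjusted p = 0.884).

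**Figure D2:**
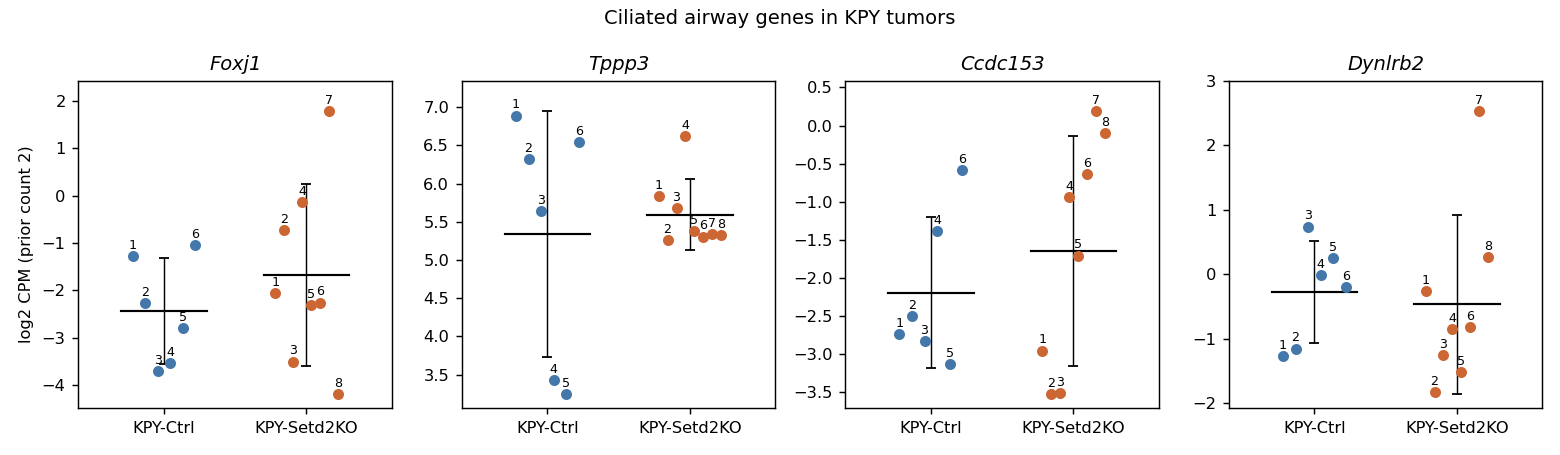
Log2 CPM (prior count 2) of the 4 ciliated genes in each tumor, with colours, numbers, lines and bars as for the secretory genes (mean and SD). KPY-Setd2KO 7 is highest for Foxj1, Ccdc153 and Dynlrb2, while Tppp3 is highest in KPY-Ctrl 1 at 118 CPM.

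Of the 9 airway genes tested, 0 were called between genotypes (adjusted p under 0.05 and absolute log2 fold change over 1), and the same share of all genes tested was called, 0%, by edgeR. By DESeq2, 2.25% of genes were called and 0 of the airway genes. At an unadjusted p under 0.05, 1 of 9 airway genes passed (Scgb1a1), beside 13.7% of all genes. All 10 overlapped between genotypes, where 0.570% of the genes tested did not. Of the 9, 5 had a log2 fold change above 0, beside 52.7% of all genes. The median was -0.20 over the 6 secretory genes and 0.43 over the 3 ciliated genes tested, against 0.03 for all genes. The ciliated median was the value of Dynlrb2, which turned to -0.69 without KPY-Setd2KO 7. Intervals were wide, since a standard error of 0.49 to 1.32 on the log2 scale leaves sizeable differences in either direction undetectable with these tumors.

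**Figure D3:**
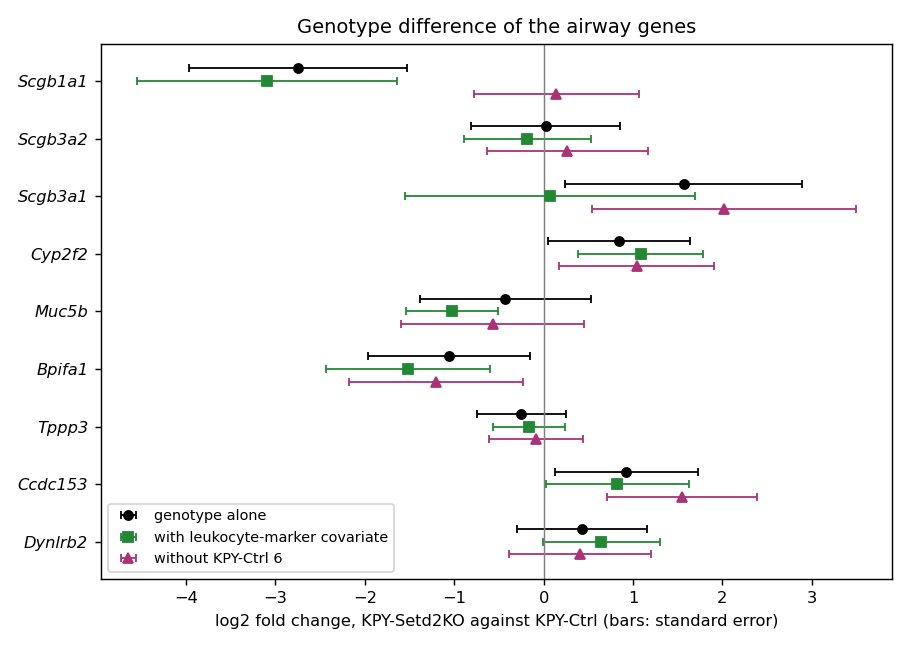
Log2 fold change of the 9 airway genes tested (KPY-Setd2KO against KPY-Ctrl, edgeR, bars giving the standard error) on genotype alone (black), with leukocyte-marker level as a covariate (green) and without KPY-Ctrl 6 (purple). Scgb1a1 moves from -2.74 to 0.14 when that control is left out.

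The airway genes varied widely within each genotype. The SD of log2 CPM around the genotype mean was 2.48 for Scgb3a1, 2.37 for Scgb1a1, 2.22 for Muc5b, 2.17 for Bpifa1, 1.77 for Scgb3a2 and 1.55 for Cyp2f2, against a median of 0.67 over all genes tested. These secretory genes lay between the percentiles 88.5 and 97.9 of all genes tested. The 3 ciliated genes tested lay between percentiles 72.7 (Tppp3, SD 1.10) and 82.2 (Ccdc153, SD 1.32), and Foxj1, which was not tested, had an SD of 1.64. The SD of Scgb3a1, Ccdc153 and Foxj1 includes counting noise, since these genes had tumors with 0 or 1 counts. The highest tumor exceeded the median tumor 52.9-fold for Scgb1a1, but only 2.59-fold for Tppp3.

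The high tumor was not the same for each gene. KPY-Setd2KO 5 was highest for Scgb3a2 and Muc5b, KPY-Setd2KO 6 for Scgb3a1, KPY-Setd2KO 7 for Cyp2f2, Foxj1, Ccdc153 and Dynlrb2, KPY-Ctrl 6 for Scgb1a1, KPY-Ctrl 2 for Bpifa1 and KPY-Ctrl 1 for Tppp3. Without Tppp3, the ciliated genes summed to 10.3 CPM in KPY-Setd2KO 7 and to between 0.429 and 2.03 CPM in the others. The other ciliated cell genes, 42 in number, were highest in KPY-Ctrl 6 for 11 genes (26.2%) and in KPY-Setd2KO 7 for 10 genes (23.8%), where the shares over all genes with a count were 7.73% and 10.9%. For the 25 other club and secretory genes, KPY-Setd2KO 7 was highest for 9 (36%). These tumors were singled out after their values were seen, and KPY-Setd2KO 7 also had the smallest library.

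**Figure D4:**
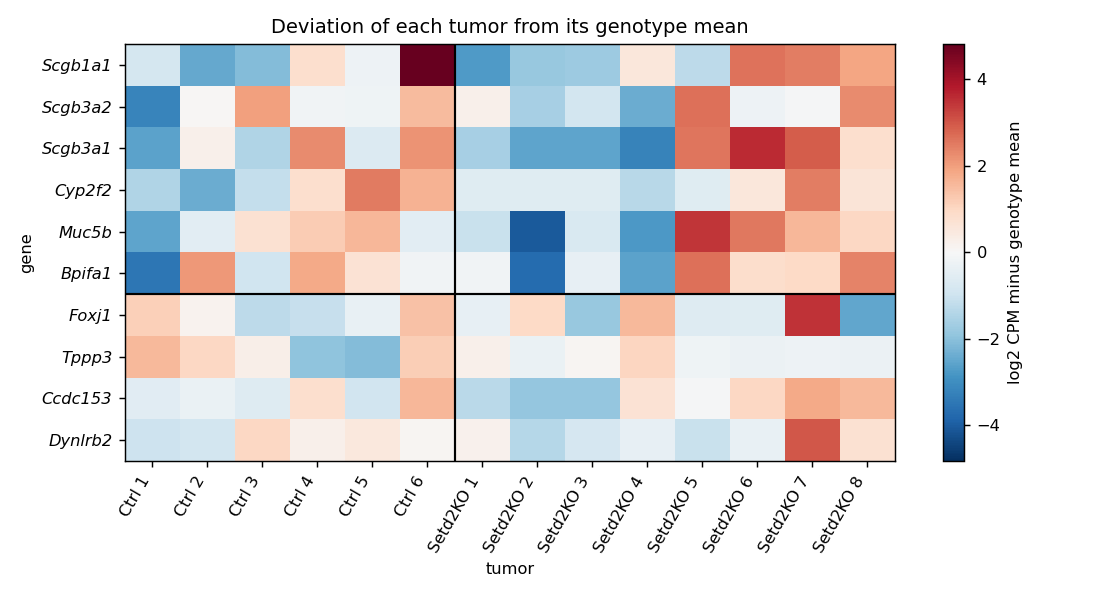
Deviation of log2 CPM from the genotype mean (colour, red above and blue below) for the 10 airway genes (rows, secretory above the line) in the 14 tumors (columns, KPY-Ctrl left of the line). Foxj1, Ccdc153 and Dynlrb2 are each furthest above the genotype mean in KPY-Setd2KO 7. Foxj1 and Ccdc153 are also above it in KPY-Ctrl 6 and KPY-Setd2KO 4. The deepest red is Scgb1a1 in KPY-Ctrl 6.

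Across the 14 tumors, with log2 CPM centred within genotype, Spearman's rho between airway genes had a median of 0.35 over 45 pairs and exceeded 0.5 in 14 pairs. These correlations are descriptions, since the values share libraries, depth and scaling. The closest pairs were Scgb3a1 with Muc5b (rho = 0.87), Scgb1a1 with Ccdc153 (0.82), Scgb3a1 with Bpifa1 (0.77) and Muc5b with Bpifa1 (0.75). None (0) of the 6 pairs of ciliated genes exceeded 0.5. A secretory gene was in each of the closest pairs named, but only 6 of the 45 pairs held no secretory gene.

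Outside the 10 genes, those whose pattern was most like that of Scgb1a1 were Fam196b (rho = 0.94), Olfr1028, Rn7s1 and Rn7s2 (0.93 each), 2900045O20Rik (0.93), Zbtb12 (0.92), Gm20644 (0.90) and Gm43498 (0.88), over the 14 tumors. Rn7s1, a gene of the signal recognition particle RNA that lacks a long poly(A) tail, ranged from 2.49 over a median of 7.52 to 76.0 CPM in the controls and from 2.67 over 4.95 to 53.4 CPM in the knockouts, highest in KPY-Ctrl 6. Rn7s1 and Rn7s2 carried the same values, so their reads could not be assigned to either. This RNA moved with Scgb1a1, and its part in the Scgb1a1 values was not tested. For the mean of the 4 ciliated genes the closest were Gm11512 (rho = 0.94), Arhgap27os2 (0.90), Des (0.89), Dusp28 (0.88), Gm42858 (0.85), Gm6341 (0.84), Manbal (0.83) and Trappc5 (0.82). Mean levels were low, from 0.21 to 0.98 CPM, for Fam196b, 2900045O20Rik, Gm20644, Gm43498, Gm11512, Arhgap27os2, Des, Gm42858 and Gm6341. Both sets were picked as the highest rhos of all genes searched, so these values are descriptions. No other ciliated cell gene was among the 8 closest to the ciliated mean. Only genes that passed the expression filter were searched, which left 17 of the 42 other ciliated cell genes, so this absence says little.

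Leukocyte-marker RNA moved with some airway genes. In a fit with genotype and the mean log2 CPM of the 18 leukocyte markers, 2 of the 9 airway genes were called on that level (edgeR adjusted p under 0.05), where 54.9% of all genes were. Muc5b fell by 0.80 in log2 per unit of leukocyte mean (standard error 0.13; edgeR adjusted p = 0.000192), where 27.3% of genes had a called negative slope. Such a slope was not particular to Muc5b. It was called for 6 of 6 epithelial, 8 of 10 alveolar type 2, 11 of 19 other club and secretory and 4 of 17 other ciliated cell genes. Tppp3 rose by 0.27 per unit (standard error 0.10; edgeR adjusted p = 0.0407), where 27.6% had a called positive slope. The slopes of Scgb3a1 (-0.86), Scgb3a2 (-0.44), Cyp2f2 (-0.43), Dynlrb2 (-0.39), Bpifa1 (-0.31), Scgb1a1 (-0.21) and Ccdc153 (-0.18) did not pass, with edgeR adjusted p from 0.0517 to 0.717. Muc5b was called in 14 of 14 fits that left out a tumor and Tppp3 in 6 of 14, and the count of airway genes called ranged from 1 (without KPY-Ctrl 1 or KPY-Setd2KO 4) to 5 (without KPY-Ctrl 6). No test compared the count of airway genes called with the share over all genes, and the part of leukocytes among the sorted cells was not tested.

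With leukocyte-marker level as a covariate, 0 of 9 airway genes were called between genotypes, where 1.40% of all genes were. The log2 fold changes were then -3.10 for Scgb1a1 (edgeR adjusted p = 0.234), -1.52 for Bpifa1 (0.366), -1.02 for Muc5b (0.271) and 1.08 for Cyp2f2 (0.401). That of Scgb3a1 moved from 1.57 to 0.07 (edgeR adjusted p = 0.986). As a description over the 14 tumors, Muc5b had a rho of 0.88 with the epithelial-marker mean and of -0.86 with the leukocyte mean.

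**Figure D5:**
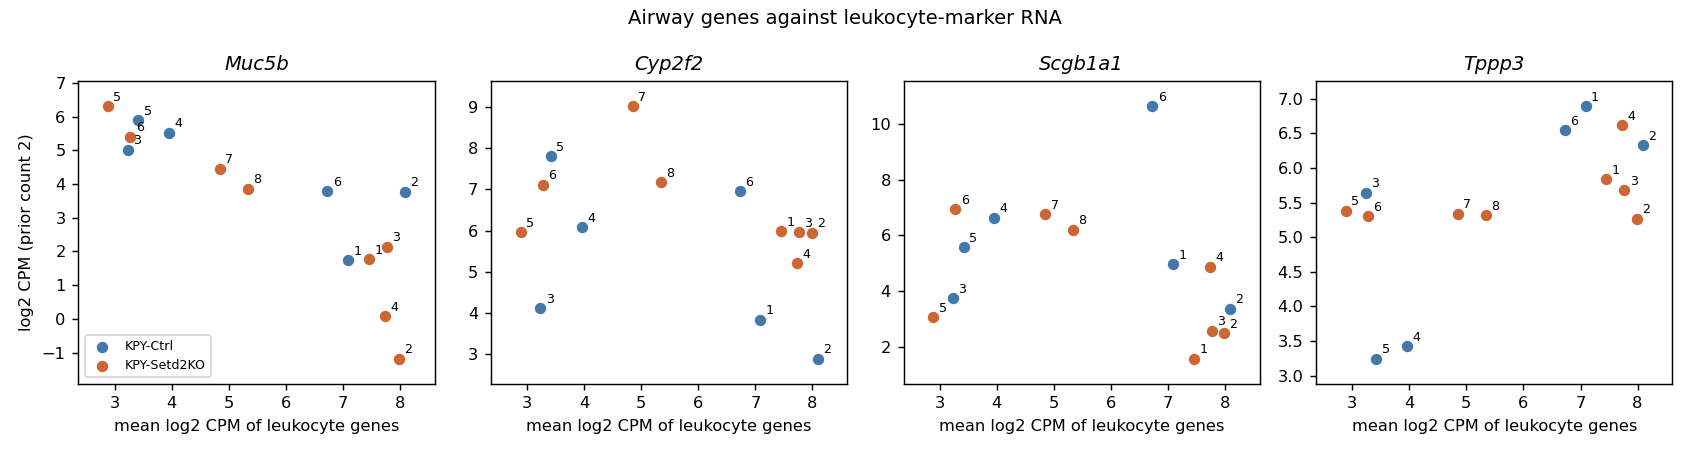
Log2 CPM (prior count 2) of Muc5b, Cyp2f2, Scgb1a1 and Tppp3 against the mean log2 CPM of the 18 leukocyte markers, 1 point per tumor with its replicate number, KPY-Ctrl in blue and KPY-Setd2KO in orange. Muc5b is lower where leukocyte-marker RNA is high, with a fitted slope of -0.80, and Tppp3 higher, with a slope of 0.27.

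Among 25 other club and secretory genes, 19 passed the expression filter and 0 were called between genotypes, with 3 higher and 0 lower at an unadjusted p under 0.05 (6.93% and 6.80% of all genes) and a median log2 fold change of 0.09. Pigr, the receptor that carries IgA across secretory epithelium, had the smallest p. It measured 1.07, 3.55 and 9.14 CPM (lowest, median, highest) in the controls and 3.52, 27.4 and 220 CPM in the knockouts. Of the 8 knockouts, only KPY-Setd2KO 1 lay within the control range. Pigr had a log2 fold change of 3.83 (standard error 0.88), and its adjusted p was 0.120 by edgeR, 8.32e-05 by DESeq2 and 0.0306 by edgeR with the leukocyte covariate, so the call depended on the tool and the covariate. Cckar, a cholecystokinin receptor, had a log2 fold change of 1.72 (edgeR adjusted p = 0.256), and Gabrp, a GABA receptor subunit of airway epithelium, 3.29 (0.286), with its high values in KPY-Setd2KO 5, 6 and 7.

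The genes with the highest levels in that list had smaller fold changes. Muc1, a membrane mucin, was at 310 ± 166 CPM (SD, n = 6) in the controls and 257 ± 156 (SD, n = 8) in the knockouts. Hp, haptoglobin, was at 176 ± 169 and 188 ± 225 CPM, and Cbr2, a carbonyl reductase of club cells, at 55.0 ± 49.1 and 64.1 ± 72.4 CPM. Their log2 fold changes were -0.27, 0.09 and 0.22, with edgeR adjusted p from 0.863 to 0.977.

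Among 42 other ciliated cell genes, 17 passed the expression filter and 0 were called, with a median log2 fold change of 0.04. At an unadjusted p under 0.05 (edgeR), 1 was higher and 3 were lower, beside 6.93% and 6.80% of all genes. Ccdc40 and Drc1, which build the regulatory complexes of the axoneme, were lower in the knockouts by point estimate, with log2 fold changes of -1.40 (standard error 0.48; edgeR adjusted p = 0.225) and -1.83 (standard error 0.74; 0.289). Odf3b, a gene of the outer dense fibre family, was at 1.599 (0.335). Counts per tumor were low for these genes, from 4 to 67 for Ccdc40, 0 to 113 for Drc1 and 2 to 53 for Odf3b. The highest were Cfap43, a cilia protein gene, at 14.6 ± 11.4 CPM (SD, n = 6) and 21.2 ± 10.8 (SD, n = 8), and Rfx3 and Rfx2, factors of the cilia program with roles in other cells, whose log2 fold changes were 0.00024 and -0.10. Of the whole list, 33 genes had a mean under 1 CPM.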

How the data were processed

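RNA of 6 KPY-Ctrl and 8 KPY-Setd2KO tumors was analysed. The deposited values were estimated counts for each Ensembl gene, which the authors made with Salmon 0.8.2 against GRCm38.p5 and given as whole numbers without normalization. Symbols, coordinates and exon lengths came from GENCODE M21 (52403 of 52550 identifiers matched). No 75-base stretch of a transcript of the 10 genes occurred in a transcript of another gene. Only the sense strand of transcripts was searched. The genotype tests used edgeR 4.0.16 under R 4.3.3 (TMM, expression filter, robust quasi-likelihood test, Benjamini-Hochberg adjustment over all genes tested); a call needed an adjusted p under 0.05 and a log2 fold change over 1 in size. Log2 CPM used a prior count of 2. DESeq2 1.42.0 (the study's tool) and limma 3.58.1 were alternatives. The procedure was tested on simulated data. The 10 genes, the other lists and the tests were chosen with earlier results of these data known. Named genes were the 10, Setd2, in each other airway list the 3 of highest mean CPM and the 3 of smallest p, and the 8 closest in rho to Scgb1a1 and to the ciliated mean; any others were chosen after their values were seen. P-values measure the spread between tumors, some of which shared a mouse. The closest libraries (KPY-Ctrl 4 and 5) differed beyond sampling noise (chi-square per degree of freedom 24.3), so all were kept. Promoter sequences came from RefSeq (GRCm38.p6); Scgb1a1, Scgb3a2, Muc5b, Foxj1 and Tppp3 had no entry. An allele that all mice shared is not reported here.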

Additional observations from a re-analysis of the deposited data

Results flagged for a closer look

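Tppp3 in KPY-Setd2KO 4, at 6.62 log2 CPM (98.2 CPM), lay apart from the other 7 knockouts, which were between 5.26 and 5.83 log2 CPM. It was the only 1 of 20 groups of values (10 genes in 2 genotypes) with an outlying tumor by Dixon's criterion, and chance marks about 1 in 20. Scgb1a1 in KPY-Ctrl 6 did not meet that criterion on the log2 scale.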

How the results depend on the processing

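The call of 0 airway genes between genotypes was the same under each alternative run. Genes called numbered 457 by DESeq2 and 236 with the leukocyte-marker covariate. In alternatives chosen after seeing the data, they numbered 532 with an epithelial-marker covariate and 468 by DESeq2 without its outlier rule. In that order, these runs called 1 (Pigr), 1 (Pigr), 4 (Pigr, Foxa3, Muc5ac and Scgb1c1) and 1 (Pigr) of the other club and secretory genes. With the epithelial-marker covariate, Pigr was higher in the knockouts (log2 fold change 3.68), while Foxa3 (-1.37), Muc5ac (-1.42) and Scgb1c1 (-1.31) were lower. Leaving out each tumor gave 0 to 1 genes called (Notch1, without KPY-Ctrl 6) and 1 to 5 airway genes called on leukocyte level (1 without KPY-Ctrl 1 or KPY-Setd2KO 4, 5 without KPY-Ctrl 6, 4 without KPY-Ctrl 3, KPY-Setd2KO 5 or 6); scaling by library size alone also gave 5 and shifted the median log2 fold change of all genes from 0.03 to -0.11.

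The direction turned for Scgb3a2 (-0.13 by limma voom, -0.0056 without a filter, -0.18 with the leukocyte and -0.34 with the epithelial covariate), Tppp3 (0.25 by voom), Dynlrb2 (-0.36 by voom) and Scgb3a1 (-0.39 with the epithelial covariate). By voom, sizes moved to -1.57 for Scgb1a1, -1.30 for Muc5b, 0.74 for Scgb3a1 and 0.50 for Ccdc153 without a turn. Over the fits without a tumor, log2 fold changes ran from -3.13 to 0.14 for Scgb1a1, -0.56 to 0.51 for Scgb3a2, -0.47 to 0.061 for Tppp3, -0.69 to 0.68 for Dynlrb2, -1.17 to -0.07 for Muc5b, -1.54 to -0.62 for Bpifa1, 0.94 to 2.16 for Scgb3a1, 0.11 to 1.56 for Cyp2f2 and 0.58 to 1.55 for Ccdc153; the causes were not tested. With a replicate block (tumors 1 to 6, 7 airway genes tested) 0 genes were called, and Scgb3a2 was at -0.94, Tppp3 at 0.21, Dynlrb2 at -0.92 and Muc5b at -1.76. Same-numbered tumors deviated together in only 3 of 6 pairs (correlations from -0.66 to 0.66). Those pairs (1, 2 and 5) were alike in leukocyte-marker level and the others were not. These correlations therefore cannot show whether the numbers pair tumors. The filter of at least 10 counts in every tumor left 6 airway genes. Depth limits Foxj1, Ccdc153 and Scgb3a1, which had tumors with 0 or 1 counts.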
